A study of Mus musculus with 6 samples.

Results

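The genes described here encode the sensors of endoplasmic reticulum (ER) stress and a set of the targets they switch on, namely Ern1, Ern2, Xbp1, Atf6, Hspa5, Ddit3, Dnajb9, Pdia4, Sdf2l1 and Herpud1. They were taken by name, through every probe set that the platform annotation pairs with exactly 1 gene symbol when that symbol is one of these 10. A probe set is a small group of short probes that reads 1 transcript or a few. The choice gave 24 probe sets of the 45037 tested, with 5 for Ern1, 4 for Xbp1, 3 each for Atf6 and Hspa5, 2 each for Ddit3, Pdia4 and Herpud1, and 1 each for Ern2, Dnajb9 and Sdf2l1.

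RNA came from healthy colon epithelium of mice 12 weeks old on a mixed 129SvEv/C57BL/6/DBA/2 background and was read on Affymetrix expression arrays (Mouse Genome 430 2.0). The knockout group, vil-Cre-Bcl9-/-/Bcl9l-/-, had 3 arrays, made from pools of 3, 2 and 2 mice (knockout 1, 2 and 3). The wildtype group also had 3 arrays, each from a pool of 3 mice (wild type 4, 5 and 6). Bcl9 and Bcl9l encode co-activators that bind beta-catenin in the Wnt pathway, and the villin promoter drives Cre in intestinal epithelium. The labels name Cre in the knockouts alone, so Cre itself and the loss of the co-activators cannot be told apart. Cells were released by a soak of 1.5 to 2 h with 3 mM EDTA and 0.05 mM dithiothreitol (DTT). Every array shared this soak, so its effect on the genes described here was not tested. Cells were not sorted, so a lower value can mean fewer cells of a type or less RNA per cell, which bulk samples cannot separate.

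ER stress arises when more protein enters the ER than can be folded. In the resting cell the chaperone BiP holds the sensors in check. On stress, IRE1 cuts an intron out of the Xbp1 transcript, ATF6 moves to the Golgi and is cleaved into a transcription factor, and PERK slows translation and raises ATF4. Goblet cells of the colon fold and secrete very large mucins and carry their own form of IRE1, the product of Ern2. The arrays read transcript levels. Splicing of Xbp1, cleavage of ATF6 and phosphorylation of IRE1 or PERK were not measured.

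None of the 24 probe sets differed between knockout and wild type by more than the test could call. limma with Benjamini-Hochberg adjustment over all probe sets called 0 of 24 higher and 0 lower at an adjusted p of 0.05, with member adjusted p from 0.991 to 0.999. The background was the same, at 0% called in each direction over the 45037 probe sets. At an unadjusted p under 0.05 there were 0 of the 24, where all probe sets gave 4.15%. Values of the 3 knockout and 3 wild-type arrays overlapped for all 24 probe sets, where the groups lay apart for 9.69% of all probe sets. The differences ran from -0.73 to 0.30 on the log2 scale, knockout minus wild type, with a median of 0.035 for the members and 0.0018 for all probe sets. For 23 of the 24 the 95% interval stayed within a 2-fold change either way, and for 16 within a 1.5-fold change. The exception at 2-fold was the Ddit3 probe set 1443897_at, whose mean of 5.91 lay just above the array medians of 5.44 to 5.58.

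**Figure D1:**
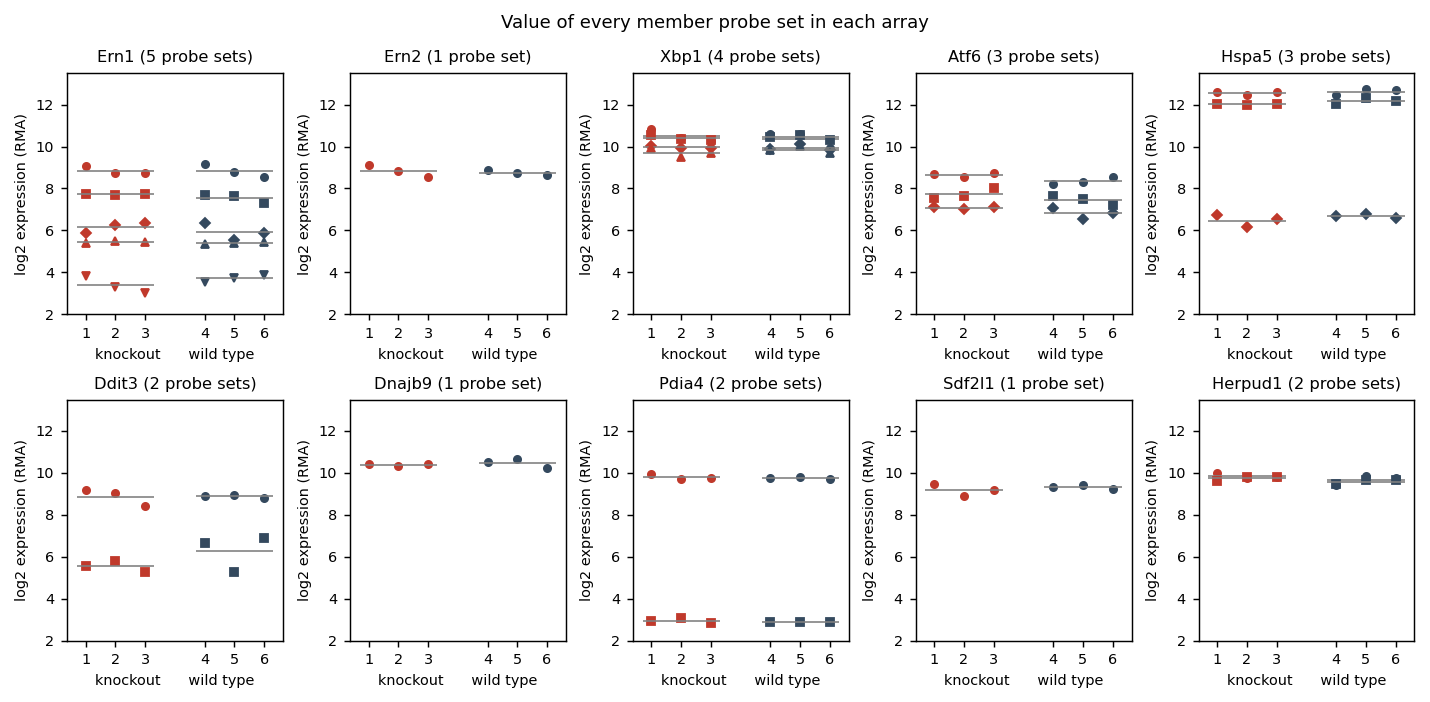
Log2 expression (RMA, vertical axis) of each member probe set in knockout arrays 1 to 3 (red) and wild-type arrays 4 to 6 (dark blue), 1 panel a gene, with a different symbol for each probe set and a grey line at each group mean (n = 3 each). The red and blue points overlap in height for all 24 probe sets.

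**Figure D2:**
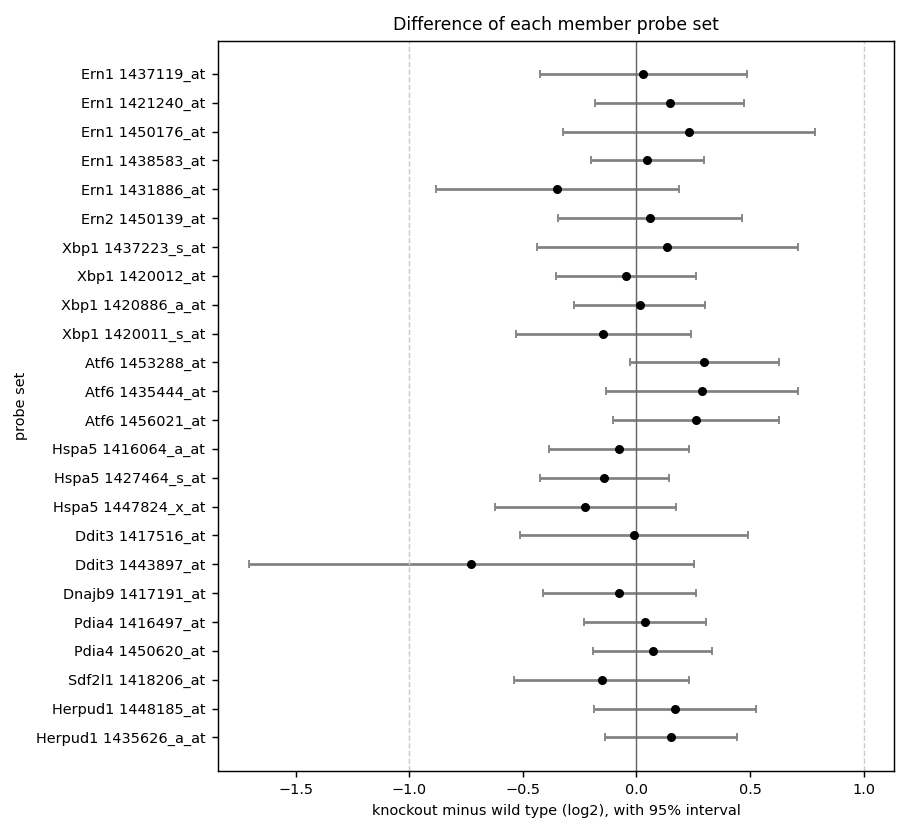
Difference between knockout and wild type (log2, horizontal axis) for each of the 24 probe sets, with limma's 95% interval as the bar and dashed lines at 2-fold either way. All 24 intervals include 0, and the Ddit3 probe set 1443897_at has the widest.

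Among the sensors, Ern1 encodes IRE1 alpha, the kinase and ribonuclease found in most cell types. Its brightest probe set, 1437119_at, read 9.07, 8.76 and 8.74 in the knockouts, against 9.16, 8.78 and 8.53 in wild type. The highest and the lowest array were both wild type. Knockouts averaged 8.86 ± 0.19 and wild-type arrays 8.83 ± 0.32 (SD, n = 3 each). The difference was 0.03 (SE 0.19, 95% interval -0.42 to 0.49, limma adjusted p = 0.998). A further Ern1 probe set, 1421240_at, read 7.72, 7.67 and 7.76 in the knockouts, against 7.71, 7.67 and 7.33 in wild type, a difference of 0.15 that was 0.027 without wild type 6 and 0.22 without wild type 4. The other 3 Ern1 probe sets differed by 0.23, 0.05 and -0.35, with limma unadjusted p between 0.167 and 0.661. The one at -0.35, 1431886_at, was dim, with 3.83, 3.29 and 3.00 in the knockouts against 3.54, 3.75 and 3.88 in wild type, below the array medians. Without knockout 1 it was -0.58 (limma unadjusted p = 0.016, adjusted p = 1.00), and without knockout 3 it was -0.16. Ern1 probe sets thus did not share a direction, and over the 6 arrays some of them ran opposite to each other, with correlations between pairs as low as -0.74.

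Ern2 encodes IRE1 beta, which is made in mucus-producing epithelium of gut and airway. Its single probe set, 1450139_at, read 9.10, 8.83 and 8.54 in the knockouts, against 8.90, 8.75 and 8.64 in wild type. Knockout arrays held both ends of the range, and all wild-type values lay inside it. Knockouts averaged 8.82 ± 0.28 and wild-type arrays 8.76 ± 0.13 (SD, n = 3 each), which differ by 0.06 (SE 0.17, 95% interval -0.34 to 0.47, limma adjusted p = 0.994). In fold terms the interval ran from 0.788 to 1.38. The 10 goblet cell markers, which share their main cell type with Ern2, had a median difference of -0.015, with 3 above and 7 below 0 and 0 called. Muc2, the main secreted mucin of the colon, differed by 0.05, and Agr2, an ER disulfide isomerase needed for mucin folding, by -0.01. The genotypes lay apart for 3 of the 10, where 10.3% of all genes did. Spink1 and Clca1 read lower in every knockout, at differences of -0.24 and -0.15, and Spink4 higher in every knockout, at 0.17, with limma unadjusted p of 0.0506, 0.237 and 0.153.

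Atf6 encodes the sensor that is freed by proteolysis. All 3 of its probe sets had differences above 0, as all 3 of Hspa5 had differences below 0, and none was called. Probe set 1453288_at read 8.71, 8.54 and 8.72 in the knockouts, against 8.20, 8.31 and 8.56 in wild type. Wild type 6 lay just above knockout 2, and the other wild-type arrays lay below every knockout. The difference of 0.30 (SE 0.14, 95% interval -0.03 to 0.63) had the smallest unadjusted p of the 24, 0.0687 by limma, and an adjusted p of 0.991. Probe set 1435444_at read 7.55, 7.66 and 8.01 in the knockouts, against 7.65, 7.50 and 7.20 in wild type, a difference of 0.29 (SE 0.18). Probe set 1456021_at read 7.10, 7.02 and 7.14 in the knockouts, against 7.07, 6.56 and 6.85 in wild type, a difference of 0.26 (SE 0.15). Probe sets of 1 gene read the same RNA and are not replicates of each other. They also differed in which wild-type array was lowest, namely 4, 6 and 5 for the probe sets in the order given.

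Xbp1 encodes the transcription factor made active by IRE1, and it drives ER expansion in secretory cells, plasma cells included. Probe set 1437223_s_at read 10.86, 10.43 and 10.26 in the knockouts, against 10.62, 10.59 and 9.94 in wild type. Knockout 1 was the highest array and wild type 6 the lowest. Knockouts averaged 10.52 ± 0.31 and wild-type arrays 10.38 ± 0.39 (SD, n = 3 each). The 0.14 between them (SE 0.24, limma adjusted p = 0.991) turned to -0.089 once wild type 6 was left out. The probe set 1420012_at differed by -0.04, 1420886_a_at by 0.01 and 1420011_s_at by -0.15. For 1420886_a_at, which had the narrowest interval of the 4, the values were 10.02, 9.95 and 9.91 in the knockouts and 9.87, 10.12 and 9.86 in wild type, with a 95% interval of -0.27 to 0.30. The probes of these sets are not described in the sources used here, so none of them is assigned to the spliced or unspliced form.

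Hspa5 encodes BiP, the ER chaperone that both folds proteins and restrains the sensors, and it is the classic target of ATF6. Of the 8 members with a promoter in the RefSeq table (build GRCm38.p6, 250 bases before to 50 after the gene start), Hspa5 and Herpud1 each held an exact copy of an ER stress element, and those promoters are printed for that reason. For Ern2 and Atf6 no promoter was matched. The ER stress element was searched on both strands as CCAAT and CCACG with 9 bases between them, and its second type as ATTGG and CCACG with 1 base between them. Capitals mark the matches.

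Hspa5 promoter (chr2:34771840-34772139, plus strand): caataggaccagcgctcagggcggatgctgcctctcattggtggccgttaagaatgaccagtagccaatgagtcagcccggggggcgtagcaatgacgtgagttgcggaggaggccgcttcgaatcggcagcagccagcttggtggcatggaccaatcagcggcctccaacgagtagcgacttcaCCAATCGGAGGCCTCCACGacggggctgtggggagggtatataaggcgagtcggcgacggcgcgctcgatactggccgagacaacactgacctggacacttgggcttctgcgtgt
Herpud1 promoter (chr8:94386179-94386478, plus strand): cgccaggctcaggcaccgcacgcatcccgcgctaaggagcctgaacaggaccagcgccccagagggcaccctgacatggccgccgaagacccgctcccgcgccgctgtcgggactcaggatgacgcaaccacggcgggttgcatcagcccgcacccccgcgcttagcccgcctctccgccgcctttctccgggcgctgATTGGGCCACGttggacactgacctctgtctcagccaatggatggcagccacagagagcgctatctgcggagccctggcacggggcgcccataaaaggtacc

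The Hspa5 match began at base -65 and the Herpud1 match at base -52, counted from the gene start. Of the 32851 promoters listed by RefSeq, 0.119% held the first type and 0.0365% the second. The element TGACGTGG, bound by ATF6 and XBP1, was in 0 of the 8 member promoters and 0.676% of all, and overlaps the last bases of the ER stress elements when read on the other strand. The amino acid response element TGATGNAA, bound by ATF4, was in 1 of the 8, that of Herpud1, and in 3.97% of all. A match is a stretch of letters and was not tested as a binding site.

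The Hspa5 transcript itself was close between genotypes. Probe set 1416064_a_at read 12.59, 12.45 and 12.61 in the knockouts, against 12.44, 12.75 and 12.68 in wild type. Wild type held both the lowest and the highest array, and the difference of -0.075 (SE 0.13, 95% interval -0.38 to 0.23, limma adjusted p = 0.991) bounds a rise at 1.17-fold and a fall at 0.767-fold. Probe set 1427464_s_at read 12.05, 11.99 and 12.03 in the knockouts, against 12.01, 12.30 and 12.19 in wild type, a difference of -0.14 (SE 0.12). These brighter Hspa5 probe sets moved together over the 6 arrays, with a Pearson correlation of 0.89. The third, 1447824_x_at, whose suffix marks probes that can bind other transcripts, differed by -0.22 (SE 0.17).

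Dnajb9 encodes ERdj4, a co-chaperone of BiP and a target of XBP1. It read 10.42, 10.33 and 10.44 in the knockouts, against 10.50, 10.68 and 10.24 in wild type. The knockouts sat between the wild-type extremes, at 10.40 ± 0.06 against 10.47 ± 0.22 for wild-type arrays (SD, n = 3 each), and differed by -0.075 (SE 0.14, limma adjusted p = 0.991). Leaving out wild type 5 gave 0.029, and leaving out wild type 6 gave -0.19.

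Pdia4 encodes a protein disulfide isomerase of the ER lumen. Its bright probe set, 1416497_at, read 9.92, 9.72 and 9.74 in the knockouts, against 9.77, 9.78 and 9.71 in wild type. All 6 arrays lay within 0.21 of each other, and the difference of 0.04 (SE 0.11, 95% interval -0.23 to 0.31, limma adjusted p = 0.995) had the narrowest interval among the brightest probe sets of the 10 genes. The other, 1450620_at, was dim, at 2.95 ± 0.10 for knockouts and 2.88 ± 0.02 for wild-type arrays (SD, n = 3 each).

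Sdf2l1 encodes a partner of the BiP chaperone cycle that is induced by ER stress. It read 9.45, 8.90 and 9.18 in the knockouts, against 9.34, 9.41 and 9.24 in wild type. The knockouts took both ends of the range, and the difference was -0.15 (SE 0.16, 95% interval -0.54 to 0.23, limma adjusted p = 0.991). Without knockout 2, the lowest array, it was -0.015, and without knockout 1, the highest, it was -0.29 (limma unadjusted p = 0.0998).

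Herpud1 encodes a membrane protein of ER-associated degradation, by which misfolded proteins are sent to the proteasome. Probe set 1448185_at read 9.97, 9.77 and 9.78 in the knockouts, against 9.42, 9.83 and 9.77 in wild type, a difference of 0.17 (SE 0.15, limma adjusted p = 0.991). Wild type 4 stood below the other 5 arrays, and without it the difference was 0.042, against 0.25 without wild type 5. Probe set 1435626_a_at read 9.59, 9.82 and 9.80 in the knockouts, against 9.48, 9.64 and 9.64 in wild type, a difference of 0.15 (SE 0.12). Here knockout 1 fell among the wild-type arrays and the other knockouts lay above them all.

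Ddit3 encodes CHOP, the transcription factor tied to cell death in prolonged ER stress and induced through ATF4. Probe set 1417516_at read 9.18, 9.03 and 8.40 in the knockouts, against 8.90, 8.92 and 8.82 in wild type. Knockout 3 was lowest and the other knockouts highest, so that the means nearly coincided, at 8.87 ± 0.41 for knockouts and 8.88 ± 0.06 for wild-type arrays (SD, n = 3 each), and differed by -0.011 (SE 0.21, limma adjusted p = 0.999). Without knockout 3 it was 0.22. Probe set 1443897_at gave the largest difference of the 24, -0.73 (SE 0.41, 95% interval -1.71 to 0.25, limma adjusted p = 0.991). It read 5.57, 5.79 and 5.28 in the knockouts, against 6.66, 5.28 and 6.87 in wild type, so wild type 5 matched the lowest knockout while the other wild-type arrays lay above all knockouts. Without wild type 5 the difference was -1.22 (limma unadjusted p = 0.000816, adjusted p = 0.996), and without wild type 6 it was -0.43 (adjusted p = 0.913). The pair of Ddit3 probe sets had a correlation of 0.12 over the 6 arrays.

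The 10 genes, each by its brightest probe set, were also compared in pairs over the 6 arrays. Of 45 pairs, 33 had a correlation above 0, with a median of 0.29 and a range from -0.54 to 0.87. Pairs of probe sets of the same gene had a median of 0.43 and a range from -0.74 to 0.89, with 19 of 25 above 0. The share over pairs of all genes was not computed, so these values do not set the members apart. The sensors Ern1 and Ern2 correlated at 0.77, Ern1 and Xbp1 at 0.85, and Ern2 and Xbp1 at 0.83, while Hspa5 ran against Ern1 at -0.54. These are descriptions over 6 arrays, each of its own RNA pool, that were normalized together. Knockout 1 was highest for 6 of the 10 genes and wild type 6 lowest for 4. The mean deviation of the 10 genes from their own 6-array means was 0.20, -0.051 and -0.086 in the knockouts, and -0.0028, 0.054 and -0.11 in wild type. Both extremes were single arrays, and the genotypes overlapped.

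The same arrays differed in marker transcripts of cells other than epithelium. Wild type 6 stood apart on the leading principal component, which held 40.2% of the variance, and had the highest level of B and plasma cell markers, with a mean deviation of 2.07 against -0.64 to -0.052 in the other arrays. T cell, stromal and macrophage markers were also highest there, at 0.98, 1.00 and 1.03. The mean deviation of the 10 members was lowest in that array, at -0.11. In the B and plasma cell list, Cd79a, Cd79b, Ms4a1, Pou2af1, Spib, Mzb1, Jchain and Irf4 read highest in wild type 6. Prdm1, Tnfrsf17 and Derl3 did not. For these markers, 10 of 11 B and plasma cell genes, 9 of 9 T cell genes, 7 of 8 stromal genes and 4 of 5 macrophage genes read lower in the knockouts, and 0 were called. The genotypes lay apart, with the knockouts below, for 2 of the 11 B and plasma cell genes, 3 of the 9 T cell genes, 4 of the 8 stromal genes and 0 of the 5 macrophage genes, where 10.3% of all genes lay apart in either direction. At an unadjusted p under 0.05 there were 2 T cell and 2 stromal genes, where all genes gave 4.18%. In the T cell list, Cd3e, Cd3g, Cd3d, Cd8a and Ptprc read highest in wild type 6, and Itgae, Gzma, Gzmb and Nkg7 did not. Itgae, an integrin of intraepithelial lymphocytes chosen after its values were seen, is given by the brighter of its 2 probe sets. It read 7.24, 6.89 and 7.44 in the knockouts, against 8.07, 7.85 and 7.88 in wild type, a difference of -0.74 (limma unadjusted p = 0.00321, adjusted p = 0.991). The part of cells other than epithelium in the members' values was not tested. Without wild type 6 the fit called 0 of the 24 members, and the members' differences ran from -0.43 to 0.40. All 8 epithelial genes lay above the median level of all probe sets, and their mean deviation stayed between -0.062 and 0.034. Above that level also lay 6 of the 8 stromal, 5 of the 9 T cell, 5 of the 11 B and plasma cell and 2 of the 5 macrophage genes. Lying above it therefore does not measure how pure the epithelium was. The 5 Bcl9 and Bcl9l probe sets differed by -0.20 to 0.22 with 0 called, and the sources used here do not say whether their probes lie in the deleted parts, so they do not check the genotype.

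**Figure D3:**
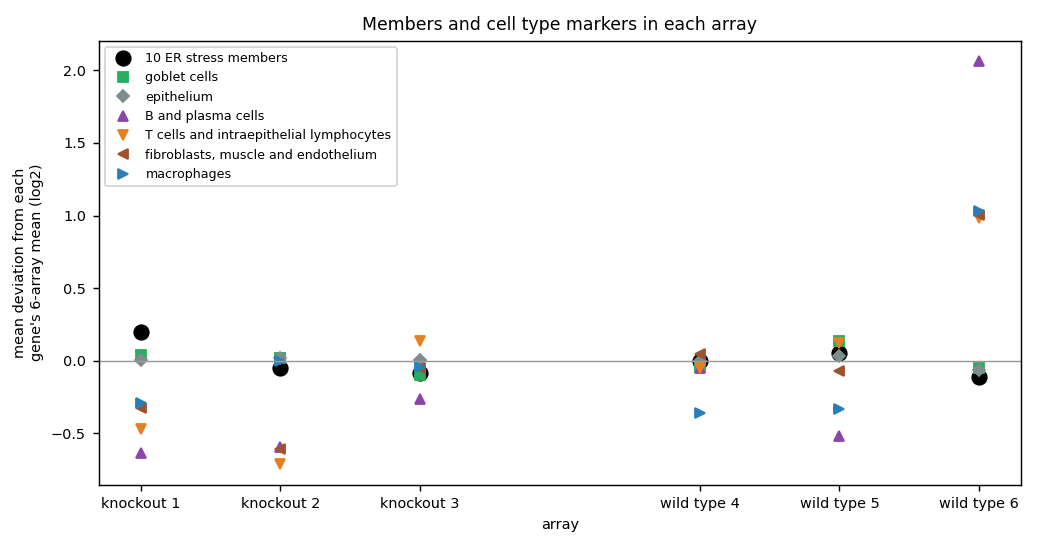
Mean deviation of each gene set from its genes' 6-array means (log2, vertical axis) in each array, for the 10 ER stress members (black) and 6 lists of cell type markers. Wild type 6 is highest for B and plasma cell markers at 2.07, while the members lie between -0.11 and 0.20.

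A further 55 genes of the unfolded protein response, in 4 lists and each by its brightest probe set, were read in the same fit. None was called in either direction, against 0% called over 18193 genes. At an unadjusted p under 0.05 there was 1 of the 55, or 1.82%, where all genes gave 4.18%. The genotypes lay apart for 5, or 9.09%, where all genes gave 10.3%. Differences above 0 made up 38 of the 55, or 69.1%, where all genes gave 52.2%. Bright probe sets leaned the same way in general, with 59.7% above 0 among all probe sets over the median level.

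The list of 19 ER chaperones and folding enzymes had 12 differences above and 7 below 0, with a median of 0.040 beside 0.0096 for all genes. That direction was not stable, since the median was -0.0033 with cyclic loess, -0.0033 without knockout 1 and -0.00014 without wild type 4, with 8, 8 and 9 of the 19 above 0. Erp29, a lumenal chaperone of the disulfide isomerase family without the usual active site, had the smallest unadjusted p of the pathway. It read 9.47, 9.30 and 9.44 in the knockouts, against 9.97, 9.84 and 9.61 in wild type, so every knockout lay below every wild-type array. The difference was -0.40 (SE 0.13, 95% interval -0.72 to -0.08, limma unadjusted p = 0.0205, adjusted p = 0.991). Dnajc10, or ERdj5, a disulfide reductase that aids degradation, differed by 0.29 (SE 0.15), and its other probe sets by 0.28 and 0.19. Outside the naming rule and chosen after their values were seen, Hyou1, a large ER chaperone, and Canx, the lectin chaperone calnexin, lay apart with the knockouts above, at differences of 0.18 (SE 0.11) and 0.12 (SE 0.11). Both have 3 probe sets, and only the brightest of each is given.

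Genes of ER-associated degradation and translocation had 12 of 14 differences above 0 and a median of 0.097. The count above 0 was 9 without knockout 1 and 10 without knockout 3 or without wild type 6. The median was 0.058 with cyclic loess and 0.084 to 0.11 without each array. Wfs1, an ER membrane protein mutated in Wolfram syndrome, read 8.27, 8.36 and 8.52 in the knockouts, against 8.41, 7.79 and 7.81 in wild type. Wild type 4 fell among the knockouts, and the difference was 0.38 (SE 0.19, limma adjusted p = 0.991). Derl1, a channel component of degradation, differed by 0.27 (SE 0.18), and its other probe sets by 0.14, 0.082 and 0.31.

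For the 8 genes of ATF6 processing and of ER-membrane bZIP factors, relatives of ATF6 that are cut in the same way, all 8 differences lay above 0, with a median of 0.13 and 0 called. Mbtps2 and Mbtps1 encode the Golgi proteases that release ATF6. Mbtps2 read 7.71, 7.47 and 7.98 in the knockouts, against 7.31, 7.59 and 7.30 in wild type, a difference of 0.32 (SE 0.17). Mbtps1 differed by 0.22 (SE 0.15), and its other probe sets by 0.22 and 0.08. Both genes overlapped between genotypes. Wild type 6 had the lowest mean deviation of this list, -0.23, and without that array 6 of the 8 lay above 0, with a median of 0.11.

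The PERK and ATF4 branch, with 14 genes, had 6 differences above and 8 below 0 and a median of -0.031. Nupr1, a stress-induced chromatin protein, read 11.84, 11.39 and 11.44 in the knockouts, against 11.18, 11.44 and 11.14 in wild type, a difference of 0.30 (SE 0.17). Sesn2, a stress-induced inhibitor of mTORC1 signalling, lay lower in every knockout, at 6.72, 6.59 and 6.63 against 6.86, 6.87 and 6.73 in wild type, a difference of -0.17 (SE 0.11), though its other probe set differed by 0.056. Outside the naming rule and chosen after their values were seen, Atf4, the branch's transcription factor, differed by -0.17 (SE 0.11) with the genotypes apart, and Eif2ak3, which encodes PERK, by 0.04 (SE 0.12). These genes also have 3 probe sets each, of which only the brightest is given.

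**Figure D4:**
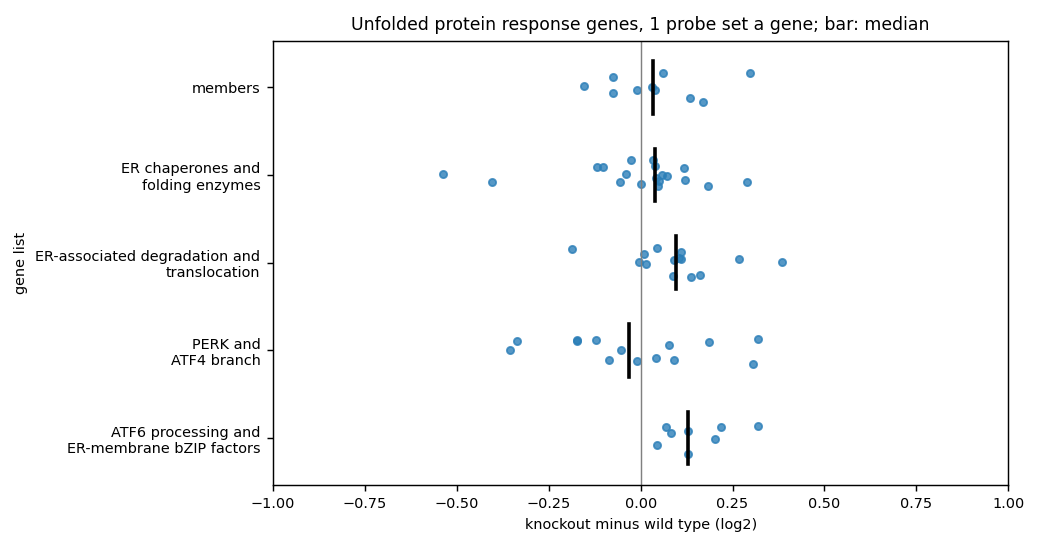
Difference between knockout and wild type (log2, horizontal axis) for each gene of the 10 members and the 4 further lists, 1 point a gene by its brightest probe set, with a black bar at each list's median. Medians lie between -0.031 and 0.13, and no point was called.

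The genes most like Hspa5 and Ern2 over the 6 arrays were sought among 16314 genes with established names. For Hspa5 they were Zfp101, Stoml1, Ces4a, Dnd1 and Vstm2l, with Pearson correlations from 0.980 to 0.989. For Ern2 they were Tph2, Tecrl, Dennd2a, Rnf186 and Zfp33b, with correlations from 0.972 to 0.992. With 6 points and so many genes, correlations of this size are a ranking only. Several of these readings were dim, among them Tph2 and Tecrl at means of 2.52 and 2.78. Rnf186, a ubiquitin ligase, was bright, and read 10.13, 9.84 and 9.65 in the knockouts, against 9.93, 9.82 and 9.67 in wild type. Its 6 arrays had the same order as for Ern2. Tph2, Tecrl and Dennd2a had that order too, so it was not particular to Rnf186.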

How the data were processed

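Total RNA of each pool (30 ng) was amplified before hybridisation, per the labels' protocols. The deposited values are log2 expression made by the authors with RMA, per the submitters' processing notes, with no version given. That the scale is log2 was taken from the range of the values. Detection calls and scan dates were not analysed here, so no background limit or batch was tested, and no filter on low values was applied. Arrays have no read depth, and their number limits the precision. Each array is a separate pool, so p-values measure the spread between pools.

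After 64 control probe sets were left out, 45037 of 45101 entered a fit on genotype alone in limma 3.58.1 (R 4.3.3), whose moderated two-sided p-values were adjusted by Benjamini and Hochberg's method over the whole table. Lists used the probe set of each gene with the highest mean, found through 34945 probe sets with 1 symbol. The fit was tested on 10 simulated data sets with 200 randomly drawn probe sets changed in each. Their noise was normal and independent for each probe set, at its observed pooled SD. On these data sets the fit called 37.1% of the 2-fold and 78.7% of the 4-fold changes, and 5.21% of its calls were false. Many changes of 2-fold would thus go uncalled. The rates need not hold for the real arrays, whose probe sets share variation that the simulation left out.

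Every member probe set is named. Of each pathway list the genes called are named, or with none called the 2 with the smallest unadjusted p. For Hspa5 and Ern2 the 5 most correlated genes are named. Members and lists were chosen with earlier results of these data known. One item of the marker lists is not reported here. The platform annotation gives no genome build for the probes. Alternatives were cyclic loess, probe sets over the median level only, probe sets with 1 symbol, 1 probe set a gene, a robust fit with an intensity trend, weights for arrays and leaving out each array.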

Additional observations from a re-analysis of the deposited data

How the results depend on the processing

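No member probe set was called under any of the 12 alternatives, and the smallest member adjusted p by limma was 0.837, without wild type 6. That fit called 3 of all probe sets, and the other 11 called 0. Without each array in turn the count over all probe sets ran from 0 to 3, and that over members stayed at 0. Directions of small differences turned. With cyclic loess they became -0.036 for Ern1 1437119_at, -0.0066 for Ern2, -0.036 for Xbp1 1420886_a_at and -0.015 for Pdia4 1416497_at. With array weights they became -0.091 for Ern1 1437119_at, -0.038 for Ern2, -0.033 for Xbp1 1437223_s_at and -0.0050 for Xbp1 1420886_a_at. Leaving out 1 array gave -0.12 to 0.20 for Ern1 1437119_at, -0.078 to 0.20 for Ern2, -0.089 to 0.26 for Xbp1 1437223_s_at, -0.12 to 0.018 for Xbp1 1420012_at, -0.032 to 0.098 for Xbp1 1420886_a_at, -0.026 to 0.075 for Pdia4 1416497_at, -0.17 to 0.22 for Ddit3 1417516_at and -0.19 to 0.029 for Dnajb9. Among values that kept their sign, leaving out 1 array gave -1.22 to -0.43 for Ddit3 1443897_at, -0.58 to -0.16 for Ern1 1431886_at and -0.29 to -0.015 for Sdf2l1. The median of the chaperone list was -0.0033 with cyclic loess and -0.0033 to 0.043 without each array. In the ATF6 processing list 6 to 8 of the 8 differences lay above 0 without each array. The median of the PERK and ATF4 branch was -0.099 with cyclic loess and -0.074 to 0.0011 without each array. The cause of these shifts was not tested. The 3 Atf6 probe sets stayed above 0 and the 3 Hspa5 probe sets below 0 under every alternative that held them. No paired analysis was possible because the genotypes share no replicate number.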
